A study of Mus musculus with 6 samples.

Results

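The genes described are the MYC, MAX and MXD transcription factors: Myc, Mycn, Mycl, Max, Mxi1, Mxd1, Mxd3, Mxd4 and Mnt. They were chosen by symbol, current or older, in the annotation of the array's probe sets, the groups of short probes that each report 1 signal for a gene. All 9 genes were found, of 8251 genes that the annotation lists alone for a probe set, and they are reported by 10 of the array's 12488 probe sets, 2 for Mycn and 1 for each of the other 8 genes. The signal of each probe set was measured on 6 arrays in embryonic stem cells of the mouse, which come from the early embryo and can form all its tissues. Wild-type cells and each of 2 lines null for H1c, H1d and H1e, 3 genes of linker histones, the proteins that sit on the outside of the nucleosome, were measured on 2 arrays, labelled experiment 1 and experiment 2. RNA came from cells in exponential growth, the labels name no treatment, and they give neither the way in which the null lines were made nor whether replicate arrays had cultures of their own. The p-values therefore rest on array-to-array spread that may be technical. H1f2, the current name of H1c, had a signal of 70.0 and 68.2 intensity units in wild type, and of 11.1 to 14.4 on the 4 null arrays, which goes with the labels.

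MYC proteins bind DNA as dimers with MAX, a partner that they share with the MXD proteins and MNT. MYC dimers activate genes of ribosome production, metabolism and cell division, whereas MXD and MNT dimers recruit SIN3 and histone deacetylases to the same DNA sites and repress. In mouse embryonic stem cells MYC and N-MYC, the product of Mycn, act redundantly in keeping the cells dividing and undifferentiated. The site both kinds of dimer bind best is the E-box CACGTG, which reads the same on both strands.

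The promoter windows of the family itself differed in whether they hold these letters. In the RefSeq promoter table (assembly GRCm38.p6, 250 bases before to 50 after each start), 3 of the 8 members listed (all but Myc) had a CACGTG, against 12.8% of the 4577 genes of the table that were tested on the array. They are Max, the shared partner, and the repressors Mxd4 and Mnt, whose windows are shown because they are the listed members whose windows carry the family's binding letters. The other listed members, Mycn, Mycl, Mxi1, Mxd1 and Mxd3, had no CACGTG in these windows. The 56 bases around each match follow 5′ to 3′ on the gene's strand, with the E-box in capitals; its first base lies 3 bases before the table's start in Max, 219 in Mxd4 and 123 in Mnt. A match of letters is a description and no measure of binding.
Max, chr12:76962221-76962276, minus strand: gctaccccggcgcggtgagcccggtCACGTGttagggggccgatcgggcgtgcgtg
Mxd4, chr5:34187899-34187954, minus strand: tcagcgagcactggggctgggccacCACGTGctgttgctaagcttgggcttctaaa
Mnt, chr11:74830776-74830831, plus strand: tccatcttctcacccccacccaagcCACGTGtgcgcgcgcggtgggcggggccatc

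No member passed the test in any comparison of lines. The closest in the null average was Mycn, 1.42-fold higher than wild type, and Mycl showed the clearest difference between the null lines, 1.44-fold higher in line 1 than in line 2. The largest difference in size was that of Mxd4, 1.66-fold lower in the null average, with arrays that differed between the experiments. Myc and Max had differences in the null average close to 0. Of the 10 probe sets, 7 (1 gene each) passed the filter on low signal, a mean over all arrays of at least 20.9, and were tested with limma on log2(signal + 2) among 7453 probe sets; the limits of the data are those of 2 arrays per line. In the average of the null lines against wild type 0 of the 7 had an adjusted p at or under 0.05, against 0.416% of all probe sets tested, and 1 (Mycn) had an unadjusted p under 0.05, against 12.7% of all. For null line 1 against wild type 0 of the 7 were called, against 0.134% of all, and Mycn alone had an unadjusted p under 0.05, against 9.49% of all. For null line 2 against wild type 0 of the 7 were called, against 0.255% of all, and Mycn again was the only member with an unadjusted p under 0.05, against 14.1% of all. Between the null lines 0 of the 7 were called, against 0.0268% of all, and Mycl alone had an unadjusted p under 0.05, against 7.55% of all. The median log2 difference of the 7 members in the null average was -0.02, and that of all probe sets tested -0.01. Both null lines were compared with the same wild-type arrays.

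**Figure D1:**
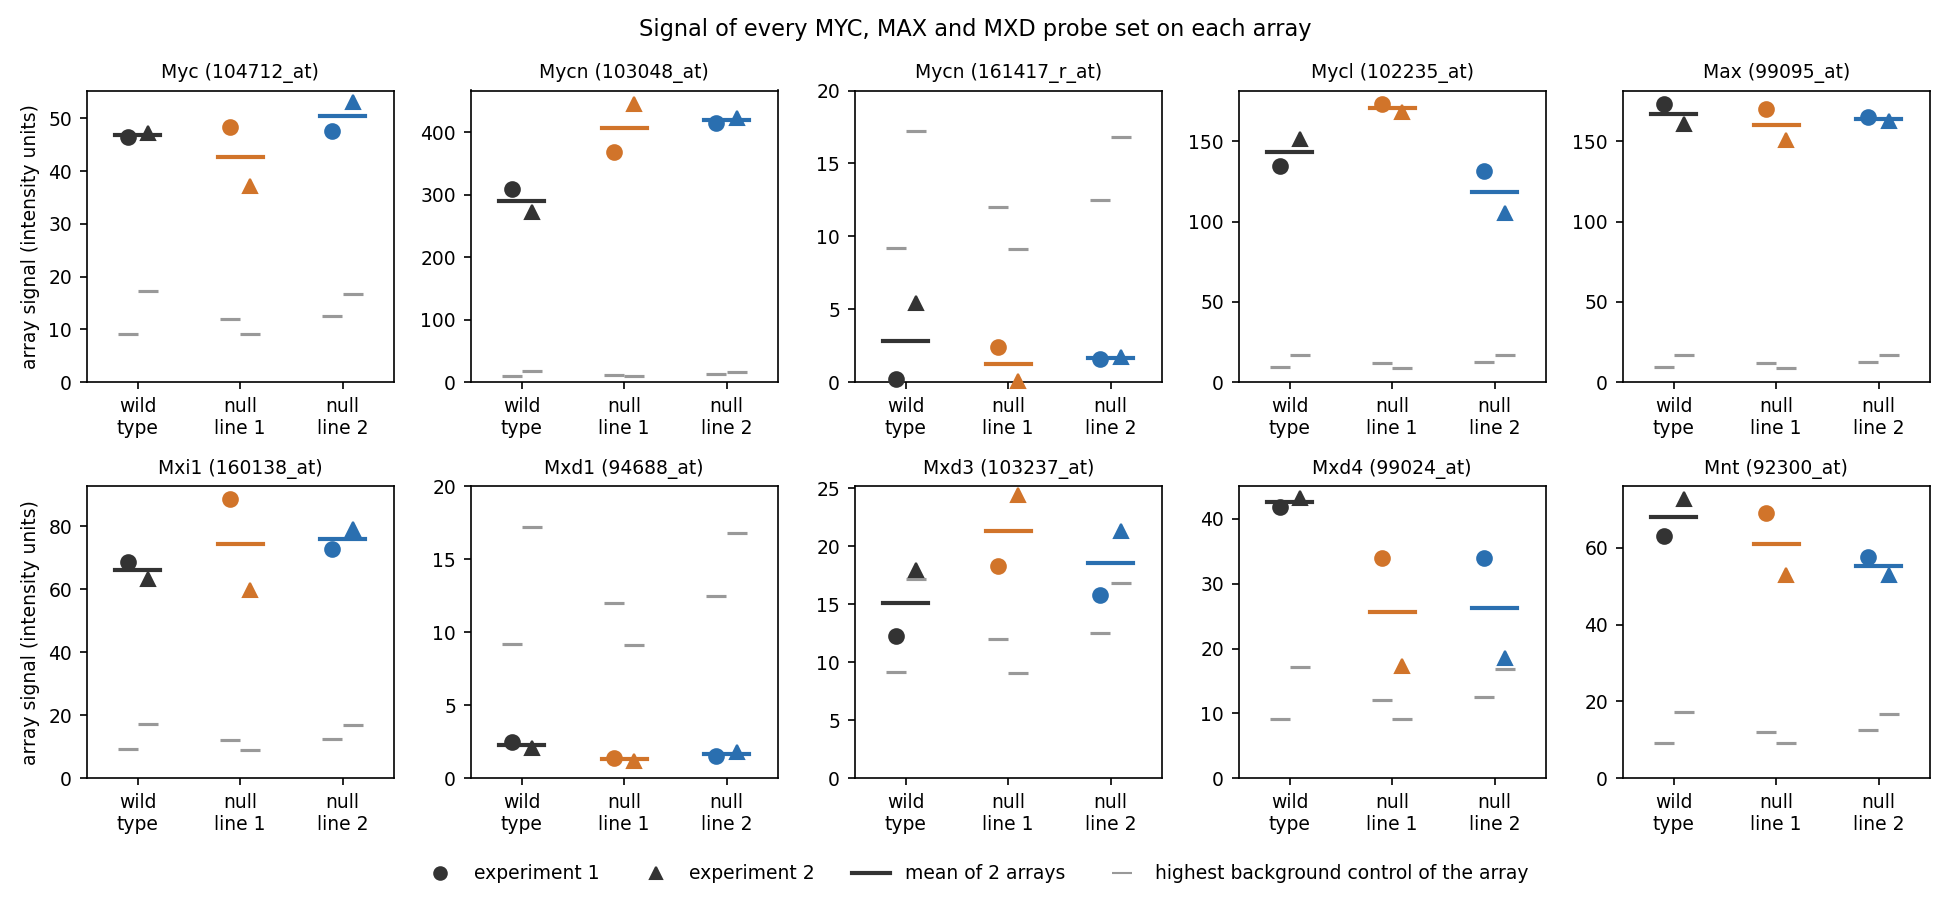
Array signal in intensity units (linear, each vertical axis from 0) for the 10 probe sets, by line. Circles are experiment 1, triangles experiment 2, bars the mean of 2 arrays and grey dashes the highest background control of each array. Mycn (103048_at) lies higher on all 4 null arrays than on either wild-type array, Mycl splits the null lines, and Mxd1 and the second Mycn probe set lie under the background controls.

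Among the activators, Mycn, the member that embryonic stem cells and embryonic neural progenitors are known to express strongly, is reported by probe set 103048_at. Its signal was 309 and 272 intensity units in wild type, 368 and 445 in null line 1, and 415 and 422 in null line 2. All 4 null arrays lay above both wild-type arrays, a pattern that 11.0% of all tested probe sets showed in this direction. The mean was 290 ± 25.7 (SD, n = 2) in wild type, 406 ± 54.6 (SD, n = 2) in line 1 and 419 ± 4.95 (SD, n = 2) in line 2. The log2 difference of the null average was 0.50 ± 0.13 (SE, 95% interval 0.19 to 0.82), which did not pass (limma adjusted p = 0.215). The difference was 0.48 in line 1 (adjusted p = 0.393) and 0.53 in line 2 (adjusted p = 0.228), and the lines differed from each other by -0.05, with a 95% interval from -0.41 to 0.31. Within experiment 1 Mycn was higher than in wild type by 0.25 in line 1 and 0.43 in line 2 on the log2 scale, and within experiment 2 by 0.70 and 0.63. Its second probe set, 161417_r_at, was below the highest background control on all 6 arrays, between 0.1 and 5.4 intensity units, and gives no second measure of the gene.

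Mycl encodes L-MYC, the third member of the activator group, and was the member on which the null lines parted. Its signal (probe set 102235_at) was 135 and 151 in wild type, 174 and 169 in line 1, and 131 and 106 in line 2. Both arrays of line 1 lay above and both arrays of line 2 below the wild-type arrays, which 2.75% of all tested probe sets showed in one order or the other. Line 1 above wild type without overlap was found for 18.9% of all, line 2 below wild type for 25.2%, and line 1 above line 2 for 18.9%. The order of the means was line 1 (171 ± 3.46), wild type (143 ± 11.7) and line 2 (119 ± 18.2, SD, n = 2 each). For neighbours in this order the limma interval held 0: the log2 difference from wild type was 0.26 in line 1 (95% interval -0.12 to 0.63) and -0.27 in line 2 (-0.65 to 0.10). Between the ends of the order the log2 difference of line 1 from line 2 was 0.53 ± 0.15 (SE, 95% interval 0.16 to 0.90), ranked 149th by p among all probe sets tested, and did not pass (limma adjusted p = 0.627). It was 0.40 within experiment 1 and 0.66 within experiment 2. The null average, in which the lines offset each other, was -0.01 (adjusted p = 0.988).

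Myc, the founding member of the family and the target of LIF and STAT3 signalling in mouse embryonic stem cells, was measured by probe set 104712_at at 46.5 and 47.3 intensity units in wild type, 48.3 and 37.2 in line 1, and 47.7 and 53.1 in line 2. Of these 6 values 1 stood low, that of line 1 in experiment 2, and the null arrays lay on either side of the wild-type arrays. The log2 difference of the null average was -0.02 (95% interval -0.36 to 0.32, limma adjusted p = 0.967), and it changed sign when arrays were rescaled to a common median. It was -0.14 in line 1 and 0.10 in line 2, and the interval of line 1 minus line 2 ran from -0.63 to 0.15. These intervals do not show that the lines are alike: for the null average they leave room for a level from 0.78 to 1.25 times that of wild type.

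Max, the partner that every other member can bind, had the smallest standard error of the 7 members tested. Its probe set 99095_at measured 173 and 161 in wild type, 170 and 151 in line 1, and 165 and 163 in line 2. The groups overlapped in each comparison, and the log2 difference of the null average was -0.04 ± 0.11 (SE, 95% interval -0.32 to 0.23, limma adjusted p = 0.916). Each line against wild type gave -0.06 and -0.02, with intervals no wider than -0.38 to 0.29.

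**Figure D2:**
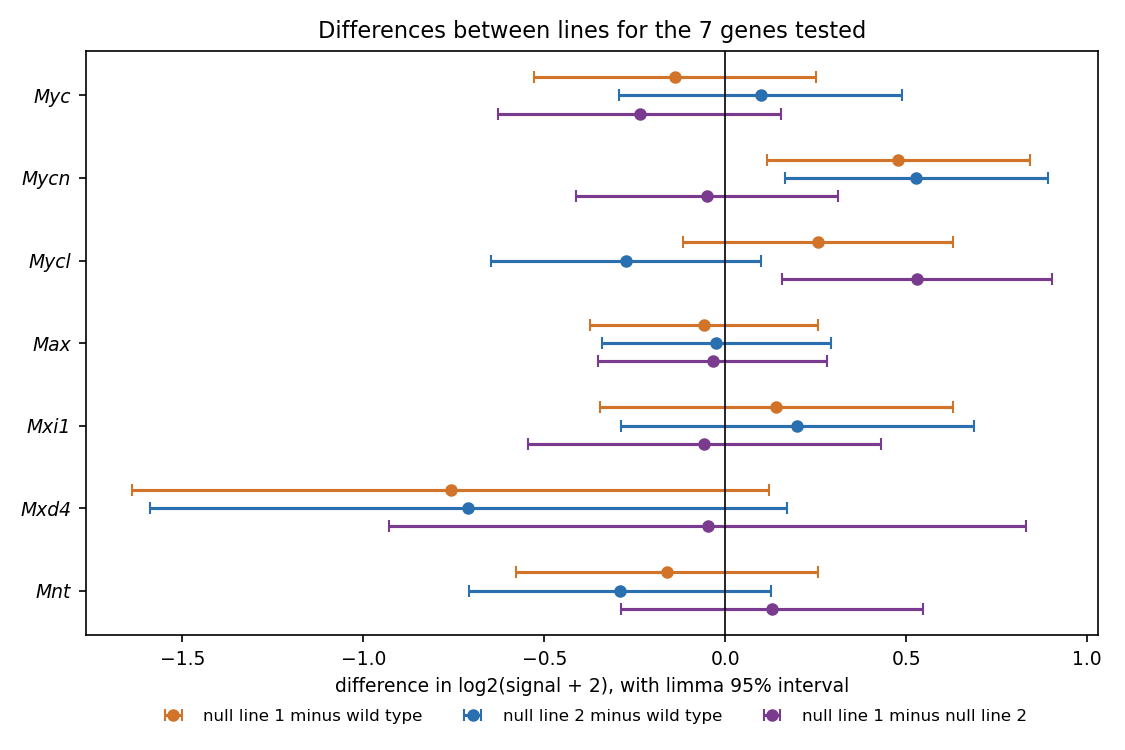
Differences in log2(signal + 2) with limma 95% intervals for the 7 members tested: null line 1 minus wild type (orange), null line 2 minus wild type (blue) and null line 1 minus null line 2 (purple). The intervals of Mycn in both lines and of Mycl between the lines leave out 0 before adjustment, and none of the differences passed after it.

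Among the antagonists, Mxd4 encodes a repressor of the MXD group, which takes the place of MYC on MAX and is known mostly from cells leaving the cell cycle. Its signal (probe set 99024_at) was 41.8 and 43.3 in wild type, 33.9 and 17.3 in line 1, and 34.0 and 18.6 in line 2, here and below in the order experiment 1, experiment 2. The wild-type arrays were close to each other, and in both null lines the array of experiment 2 was far lower than that of experiment 1. All 4 null arrays lay below both wild-type arrays, as in 12.0% of all tested probe sets. The log2 difference of the null average was -0.73 ± 0.31 (SE, 95% interval -1.50 to 0.03), which did not pass (limma adjusted p = 0.412), and only 2.11% of all tested probe sets had a larger absolute difference. Within experiment 1 the difference was -0.28 on average of the lines, and within experiment 2 it was -1.18. The lines differed from each other by -0.05 (adjusted p = 0.974), with a wide interval from -0.93 to 0.83. The probe set is dim: on the experiment 2 array of line 2 its 18.6 stood next to a highest background control of 16.8.

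Mnt encodes a broadly expressed MAX partner that counters MYC in dividing cells. Its probe set 92300_at measured 63.2 and 72.8 in wild type, 69.2 and 52.8 in line 1, and 57.5 and 52.8 in line 2. Both arrays of line 2 lay under the wild-type arrays, as in 25.2% of all tested probe sets, and line 1 overlapped them. The log2 difference was -0.29 in line 2 (95% interval -0.71 to 0.13, adjusted p = 0.504), -0.16 in line 1 (adjusted p = 0.812) and -0.23 ± 0.15 (SE, limma adjusted p = 0.582) in the null average. Within experiment 2 it was -0.45 in each null line, while within experiment 1 it was 0.13 in line 1 and -0.13 in line 2.

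Mxi1 encodes MXI1, an MXD protein first described as a MAX interactor. Its signal (probe set 160138_at) was 68.7 and 63.3 in wild type, 88.7 and 59.9 in line 1, and 72.9 and 79.2 in line 2. Line 1 held both the highest and the lowest of the 6 arrays, and both arrays of line 2 lay above wild type, as in 23.6% of all tested probe sets. The log2 difference of the null average was 0.17 ± 0.17 (SE, 95% interval -0.25 to 0.59, limma adjusted p = 0.737), and the lines differed by -0.06 (adjusted p = 0.951).

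The remaining MXD members were too dim to be tested. Mxd3, the MXD gene known from dividing cells and S phase, measured (probe set 103237_at) 12.3 and 18.0 in wild type, 18.3 and 24.4 in line 1, and 15.8 and 21.3 in line 2, above the highest background control of every array. The margin was narrow on the experiment 2 array of wild type, 18.0 against a control of 17.2. In each of the lines the experiment 2 array was the higher one, and within each experiment both null arrays were above the wild-type array, by 0.51 and 0.32 in experiment 1 and by 0.40 and 0.22 in experiment 2 on the log2 scale (line 1 first). Fitted without the filter on low signal, its null average was 0.36 ± 0.23 (SE, limma adjusted p = 0.721). Mxd1, the MXD gene of terminally differentiating cells, measured (probe set 94688_at) between 1.2 and 2.5 on the 6 arrays and was below the background controls on all of them, so no fold is given.

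**Figure D3:**
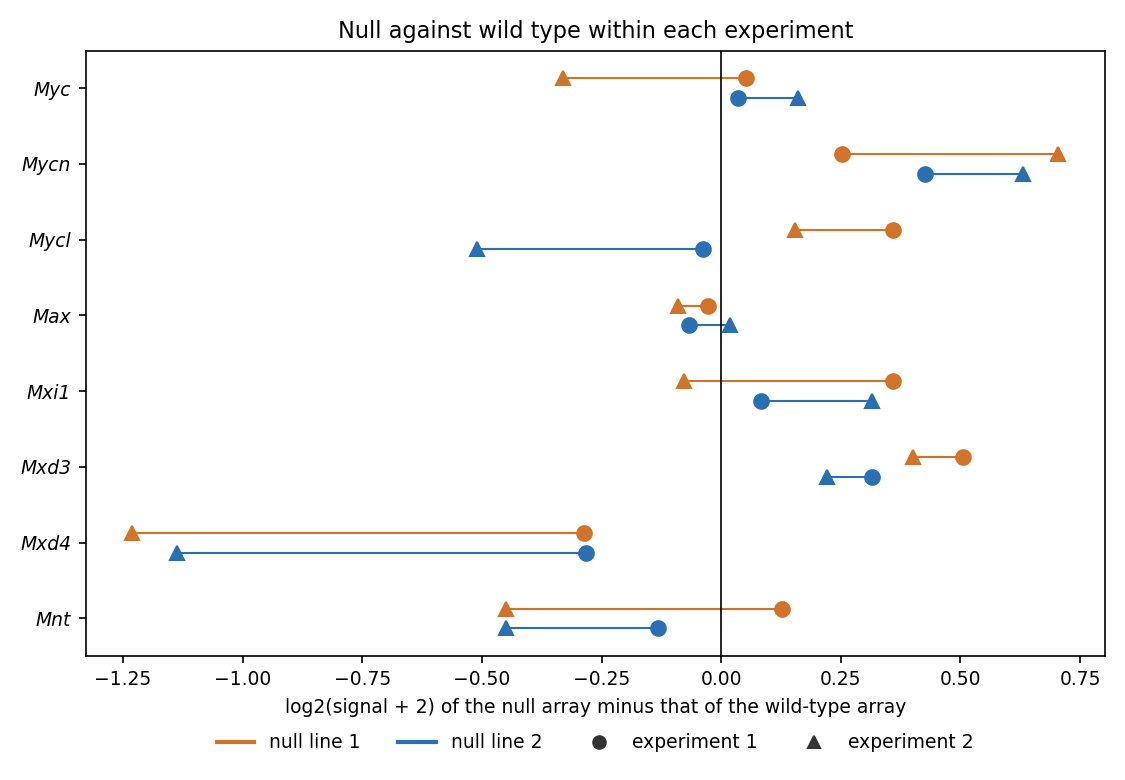
Log2(signal + 2) of each null array minus that of the wild-type array of the same experiment, for the 8 members above background on all arrays; circles are experiment 1, triangles experiment 2, orange null line 1 and blue null line 2. The 4 values of Mycn and of Mxd3 lie above 0 and those of Mxd4 below 0, with -0.28 and -1.18 as the average of the lines for Mxd4 in the 2 experiments.

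The 4 differences of a member share 2 wild-type arrays, 1 in each experiment for both null lines, and the experiment number was not shown to pair the arrays. All 4 differences had one sign in 2 of the 7 tested members, Mycn (above 0) and Mxd4 (below 0), against 33.2% of all tested probe sets. Mxd3, which was not tested, also had 4 values above 0. The experiments did not shift the members together. From experiment 1 to experiment 2 Mxd3 had a higher log2 signal in all 3 lines, by between 0.38 and 0.48, Max a lower one in all 3, by between 0.02 and 0.17, and Mxd4 a lower one by 0.90 and 0.81 in the null lines and a higher one by 0.05 in wild type.

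**Figure D4:**
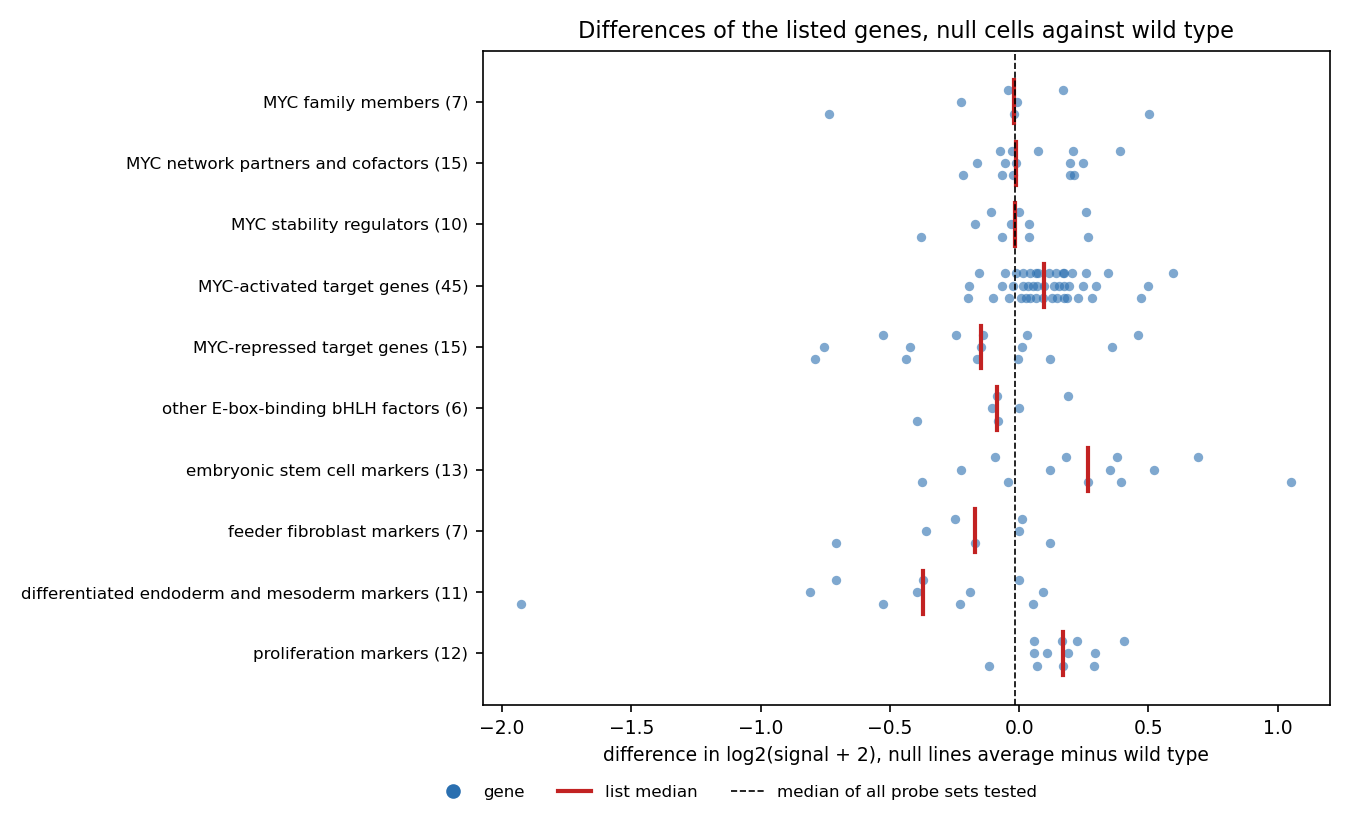
Difference in log2(signal + 2), null lines average minus wild type, for each tested gene (points) of 10 gene lists, with the number of genes tested in brackets, list medians (red) and the median of all probe sets tested (dashed, -0.01). The MYC-activated list lies mostly above 0 with a median of 0.10, and the endoderm and mesoderm markers lie mostly below 0 with a median of -0.37.

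The proteins that work with the family are described by their brightest probe set, and each list is set beside all probe sets tested, of which 47.3% had a difference above 0 in the null average. Of genes named below, the second probe sets of Pim2, Shmt1, Gas2, Krt18 and Rrm1 were under the filter on low signal and were not tested. Of 26 cofactors and MAX network partners, 15 were tested, 0 were called in either direction in any comparison, and the median in the null average was -0.01. Unadjusted limma p was under 0.05 for 0 of the 15 in the null average, against 12.7% of all probe sets tested. In line 1 it was so for 1 (Kat2a), against 9.49% of all, and in line 2 for 3 (Hdac1, Ruvbl1 and Actl6a), against 14.1%. Between the null lines it was so for 1 (Kat2a), against 7.55% of all. The SIN3 and deacetylase arm through which MXD proteins repress had null average differences of 0.07 (Sin3a), -0.07 (Sin3b), 0.21 (Hdac1) and -0.02 (Hdac2), and Mlx, a further dimer partner of MXD proteins and MNT, one of -0.03. The smallest p in the list belonged to Kat2a, a histone acetyltransferase recruited by MYC, which was at 0.39 in the null average (adjusted p = 0.398). It measured 96.5 and 69.3 in wild type, 137 and 119 in line 1, and 94.4 and 88.2 in line 2, a log2 difference of 0.63 in line 1 (adjusted p = 0.372) and 0.15 in line 2 (adjusted p = 0.766). It was followed by Ruvbl1, an ATPase of chromatin complexes (0.25, adjusted p = 0.449, with 0.09 in line 1 and 0.40 in line 2), whose dimmer probe set 160874_r_at was at -0.12, and Bin1, a MYC-interacting adaptor (-0.22, adjusted p = 0.505).

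Of 16 genes that set the stability of MYC proteins, 10 were tested, none passed, and the median was -0.02. Pim1, a kinase that phosphorylates and stabilises MYC, measured 699 ± 62.2 in wild type and 537 ± 41 in the null cells (SD, n = 2 and 4), with all 4 null arrays lower (-0.38, adjusted p = 0.292). Its dimmer probe set 99384_at was at -0.52 (adjusted p = 0.219). Aurka, the mitotic kinase that shields N-MYC from degradation, measured 264 and 316, with all 4 null arrays higher (0.26, adjusted p = 0.422). Pim2, a related kinase, measured 287 in wild type, 256 in line 1 and 471 in line 2 (null average 0.27, adjusted p = 0.455). Fbxw7, the ubiquitin ligase subunit that marks MYC and N-MYC for degradation, was at -0.07 (adjusted p = 0.849).

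Genes known to be activated by MYC were mostly a little higher in the null cells, and none passed. Of 53 listed, 45 were tested, and 36 of these (80%) had a difference above 0, with a median of 0.10. All 4 null arrays were above both wild-type arrays for 14 of the 45 (31.1%, against 11.0% of all tested probe sets) and below them for 0 (against 12.0%), and 4 (8.89%) had an unadjusted p under 0.05, against 12.7% of all. The share with all 4 null arrays higher was 58.3% among the proliferation markers (7 of 12) and 46.2% among the stem cell markers (6 of 13), both described below. The median of the MYC-activated genes was 0.07 in line 1 and 0.13 in line 2, each against the same wild-type arrays. The list also leaned one way between the null lines: 32 of the 45 were lower in line 1 than in line 2. The median of line 1 minus line 2 was -0.07, against -0.006 for all probe sets tested. Shmt1, which feeds serine carbon into the folate cycle, measured 199 ± 0.424 in wild type and 282 ± 7.78 in the null cells (SD, n = 2 and 4), a log2 difference of 0.50 ± 0.10 (SE, limma adjusted p = 0.143). Mybbp1a, a nucleolar protein, measured 191 and 268 (0.47, adjusted p = 0.221), with a dimmer probe set, 98341_f_at, at 0.40. Nolc1, a nucleolar phosphoprotein, measured 65.8 and 101 (0.59 ± 0.20, SE, adjusted p = 0.307). The most abundant nucleolar genes of the list were near 0, with Ncl at 0.03 and Npm1 at 0.01, and Odc1, the polyamine enzyme long used as a MYC target, was at 0.13 (adjusted p = 0.650). Among the 39 tested genes of the list with a RefSeq promoter, 9 (23.1%) held a CACGTG. Their median difference was 0.04, and that of the 30 without one 0.08.

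Of 19 genes listed as repressed by MYC, 15 were tested, none passed, and 10 had differences below 0, with a median of -0.15. In either direction, unadjusted limma p was under 0.05 for 5 of the 15 (33.3%, against 12.7% of all). Gadd45b, Cdkn2a and Cdkn2b were lower among these, and Gas2 and Fth1 higher. All 4 null arrays were below both wild-type arrays for 4 of the 15 (26.7%, against 12.0% of all) and above them for 2 (13.3%, against 11.0%). Gadd45b, a stress-induced growth arrest gene, measured 189 ± 12.4 in wild type and 108 ± 3.72 in the null cells (SD, n = 2 and 4), a log2 difference of -0.79 ± 0.11 (SE, limma adjusted p = 0.0606), while the dimmer one of the gene, 102779_at, was at -0.58 (adjusted p = 0.370). Gas2, a cytoskeletal growth arrest gene, went the other way, 24.5 and 34.4 (0.46, adjusted p = 0.190), and so did Fth1, the ferritin heavy chain, 954 and 1227 (0.36, adjusted p = 0.307), although its second probe set 161913_r_at was at -0.08. Of the CDK inhibitor genes on the list, Cdkn2b was at -0.42 (adjusted p = 0.391) and Cdkn1a at -0.53 (adjusted p = 0.424). Cdkn2a, whose repression by MYC is not established, was at -0.44 (adjusted p = 0.307, lower on all 4 null arrays). Cdkn1a measured 197 and 119 in wild type and between 91.4 and 127 on the null arrays, and without wild-type replicate 1 its difference was -0.17. Without that array Cdkn2a was at -0.27 and Cdkn2b at -0.22. Cdkn1b, the gene of p27, was below background on all arrays. So was the proliferation marker Mcm6, and a signal below background does not show that a transcript was absent.

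Other factors that read CACGTG were 13 on the list and 6 tested, none passed, and the median was -0.08. Bhlhe40, a repressor of the circadian and stress response, measured 109 in wild type and 83.0 in the null cells, lower on all 4 null arrays (-0.39, adjusted p = 0.302). Usf2 and Clock were at -0.10 and 0.19 (adjusted p = 0.815 and 0.806).

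Among the marker lists 1 gene passed, Fbxo15. Pou5f1, Nanog and Sox2, core factors of pluripotent cells, had mean signals of 1532, 1333 and 1410 on the wild-type arrays, against 1666, 1252 and 1380 in the null cells. Other stem cell markers were dim: Zfp42 and Esrrb were at 71.6 and 35.5 in wild type, and Klf2 was above background on 2 of the 6 arrays. Krt8 and Krt18, of the endoderm and mesoderm list, were at 1483 and 1674 in wild type. Of 14 stem cell markers, 13 were tested, Fbxo15 rose (1.05 ± 0.13, SE, limma adjusted p = 0.0465), and none was called lower. Dppa3 and Tcl1 were at 0.69 and 0.52 (adjusted p = 0.187 and 0.169). Of the 13, 9 had differences above 0 and 4 below it, with a median of 0.26. The summed signal of the 14 markers was 8442 and 8559 in wild type and 9056 to 10072 over the 4 null arrays. Of 16 endoderm and mesoderm markers 11 were tested, none passed, all 4 null arrays were lower for 5 (45.5%, against 12.0% of all), and the summed signal was 3591 and 3768 in wild type and between 2101 and 2453 in the null cells. Krt8 and Krt18 made up 3106 and 3210 of the wild-type sums, and without them the sum was 486 and 558 in wild type and 359 to 449 on the null arrays. Krt8, Krt18 and Twist1 were at -0.71, -0.81 and -0.53 (adjusted p = 0.0924, 0.118 and 0.193). Foxa2 was below background on all arrays, and Gata4 was above it on all 6 (123 in wild type and 106 in the null cells). Of 16 markers of fibroblasts, the usual feeder cells, 7 were tested and none passed. Their summed signal was 3056 and 3074 in wild type and between 2359 and 2679 in the null cells, with Acta2, Tagln and Fn1 at -0.71, -0.36 and -0.25 (adjusted p = 0.121, 0.307 and 0.605). Acta2 and Tagln made up most of the sum, which without them was 1182 and 1188 in wild type and 1103 to 1184 on the null arrays. Col1a1, Col1a2 and Timp1 were at 0.01, 0.12 and -0.0003, and S100a4 was at -0.17 (limma adjusted p = 0.688). Of those not tested, Dcn was lower on all 4 null arrays (24.8 in wild type, 14.6 in the null cells) and Thy1 higher (6.25 and 14.9). Dcn was above background on 5 of the 6 arrays, and Postn and Thy1 on 1 and 2. Col3a1, Vim and Loxl1 were above it on 4, 5 and 6, and Lum and Cd44 on 2 and 1. Of 15 proliferation markers 12 were tested, none passed, 11 had differences above 0 and the median was 0.17, with Rrm1, Mcm7 and Top2a at 0.40, 0.29 and 0.29 (adjusted p = 0.272, 0.359 and 0.394). The part of these markers in the differences of Mycn, Mxd4 and the MYC target genes was not tested, and in RNA from whole cultures fewer cells of a type and less RNA per cell cannot be told apart.

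The genes whose log2 signal followed that of Mycn most closely over the 6 arrays were Smarcd1, Aimp2 and Slc39a4, each with a Pearson correlation of 0.989 among 6718 probe sets of other single genes. Smarcd1, a subunit of BAF chromatin remodelling complexes, measured 181 in wild type and 221 in the null cells, Aimp2, a scaffold of the aminoacyl-tRNA synthetase complex, 366 and 490, and Slc39a4, a zinc transporter, 95.5 and 127. Smarcd1, Aimp2 and Slc39a4 were picked on the same 6 arrays, so their higher means in the null cells follow from the choice. With 6 arrays 51 probe sets correlated above 0.95 with Mycn, so the order among them rests on small differences. For Myc the closest were Mid1ip1, Gosr1 and Ctse (0.990, 0.988 and 0.984), each lowest on the experiment 2 array of line 1 and highest on the experiment 2 array of line 2, as Myc was. They were picked for this likeness.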

How the data were processed

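The deposited table gives linear array intensities, 1 value for each probe set on each array; MAS5 is the tool named by the authors, per the submitters' processing notes, and its settings and version are not given in the sources used here. The 2% trimmed mean of every deposited array was 100.1, so the authors' scaling was kept. Array medians were 34.1 to 39.5 intensity units. Detection calls were not used. Background was taken as the highest of 19 bacterial and yeast controls on each array, 9.1 to 17.2. The 3′ to 5′ log2 ratio, a sign of RNA integrity, lay between -0.26 and -0.13 for Gapdh and between 0.21 and 0.40 for Actb. Precision is limited by the number of arrays.

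Gene names came from the platform annotation, updated through RefSeq (GRCm38.p6), which matched 10817 of the 10833 listed with 1 gene; 396 are listed with several and 1193 with none. The 66 control probe sets were left out. Values were tested as log2(value + 2), a scale that understates changes of dim genes, in the 7453 probe sets whose mean was at or above the 40th percentile (20.9). limma 3.58.1 (R 4.3.3) fitted a mean per line to all 6 arrays, with 3 residual and 3.17 prior degrees of freedom, and p-values were adjusted by Benjamini-Hochberg over all probe sets tested, with a threshold of 0.05. The smallest two-sided p that permuting 2 against 4 arrays allows is 0.0667. The fit was tested on simulated data. Alternatives were a pseudocount of 16, no filter, quantile normalization, median centring, a spread that follows the signal, the experiment as a block, and leaving out each array.

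The members and lists were chosen with earlier results of these data known. Named genes are all members, the 3 of each list with the smallest p, any called gene, and the 3 closest in pattern to Mycn and to Myc. The others (Sin3a, Sin3b, Hdac1, Hdac2, Actl6a, Mlx, Fbxw7, Ncl, Npm1, Odc1, Cdkn1a, Cdkn1b, Cdkn2a, Cdkn2b, Pou5f1, Nanog, Sox2, Zfp42, Esrrb, Klf2, Foxa2, Gata4, Col1a1, Col1a2, Col3a1, Timp1, S100a4, Dcn, Postn, Thy1, Vim, Loxl1, Lum, Cd44 and Mcm6) were named for their known roles or their values after these were seen, as were the genes left out of marker sums.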

Additional observations from a re-analysis of the deposited data

Results flagged for a closer look

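Mycl is listed here because the null lines lay on opposite sides of wild type without overlap, line 1 above and line 2 below. The log2 difference of line 1 minus line 2 was 0.53, and the test of that difference did not pass (limma adjusted p = 0.627). The same opposite arrangement was seen in 205 of the 7453 probe sets tested (2.75%).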

How the results depend on the processing

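No member passed in any of the 4 comparisons under any of the 12 alternatives. Of 336 recomputed member differences 313 kept their direction and 23 changed it, and 15 of the 28 combinations of member and comparison kept it throughout. In the null average Mycn stayed higher, by between 0.41 and 0.59 on the log2 scale, with limma adjusted p between 0.0793 (spread that follows the signal) and 0.701 (without wild-type replicate 2). Mxd4 stayed lower, between -0.96 and -0.51, with adjusted p from 0.247 to 0.842, and Mycl stayed higher in line 1 than in line 2, by between 0.38 and 0.68, with adjusted p from 0.395 to 0.991. Median centring turned the null average of Myc to 0.0028 and of Mycl to 0.014 and the line 2 difference of Max to 0.0086, and quantile normalization turned Myc to 0.043. The list medians counted here do not cover every alternative. Of the recomputed list medians 49 stayed within 1 SD and 1 did not, that of the endoderm and mesoderm markers, to -0.21 with no filter. Arrays left out one at a time turned further differences. The null average then ran from -0.11 to 0.069 for Myc, -0.091 to 0.073 for Mycl and -0.096 to 0.012 for Max. Line 1 minus wild type ran from -0.32 to 0.041 for Myc, -0.14 to 0.026 for Max, -0.13 to 0.42 for Mxi1 and -0.35 to 0.028 for Mnt, and line 2 minus wild type from -0.079 to 0.030 for Max. Line 1 minus line 2 ran from -0.19 to 0.087 for Mycn, -0.12 to 0.050 for Max, -0.33 to 0.22 for Mxi1, -0.50 to 0.40 for Mxd4 and -0.059 to 0.32 for Mnt.

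The counts over all probe sets tested were 31 in the null average, 10 in line 1, 19 in line 2 and 2 between the null lines. A pseudocount of 16 gave 54 in the null average, 31 in line 2 and 1 between the lines, no filter gave 8, 5 in line 1, 5 in line 2 and 0, a spread that follows the signal gave 101, 42 and 92 in the first 3, and quantile normalization gave 1 between the lines. Without single arrays the counts were 7 to 13 in the null average (7 without either wild-type array), 4 to 9 in line 1, 0 to 10 in line 2 (0 without wild-type replicate 1) and 0 between the lines, where an arm with 1 array is assumed to vary like the others. Leaving out an array also leaves fewer samples, and no other cause was tested. With the experiment as a replicate block the null average had 14 calls, and there were 0 between the lines; the block changed no call of a member (Mycn adjusted p = 0.267). The log2 deviations of same-numbered arrays correlated between lines with r from 0.053 to 0.0948, below the 0.1 set for a pairing. The arrays were therefore not treated as paired, which does not show that same-numbered arrays had no batch or culture day in common. Signals near the background controls limit Mxd1, Mxd3 and Mxd4.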
